A study of Mus musculus with 32 samples.

Results

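The 8 genes described here encode the machinery with which macrophages present antigen on MHC class II: the chain genes H2-Aa, H2-Ab1 and H2-Eb1, the peptide exchange factor genes H2-DMa, H2-DMb1 and H2-DMb2, the invariant chain gene Cd74 and the class II transactivator Ciita. They were taken by symbol from a table of 24885 gene identifiers, in which each of the 8 has 1 row, and 7 of the 8 passed the filter on low counts. RNA came from bone marrow-derived macrophages, which are grown from marrow precursors in the growth factor M-CSF. The labels name the strain C57BL/6 throughout, and the genotypes are wild-type and a Trem2 knockout (T2KO in the labels, from the Trem2-/- mice of Turnbull and colleagues). Cells of each genotype were kept overnight in low or normal M-CSF, in complete RPMI with 0.5% or 10% LCCM, a conditioned medium. That low M-CSF means 0.5% and normal M-CSF means 10% is an inference. Some cells then received LPS, the bacterial lipid that activates macrophages through TLR4, at 10 ng/ml for 4 hours. Genotype, medium and LPS crossed give 8 groups of 4 libraries, 32 in all, and every mean below is over n = 4 libraries. The labels give neither age nor sex, and do not say how many mice or cultures were used.

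Class II molecules carry peptides from engulfed material to the cell surface, where CD4+ T cells inspect them. H2-Aa and H2-Ab1 encode the alpha and beta chains of the I-A molecule, and H2-Eb1 encodes the beta chain of I-E, whose alpha chain gene H2-Ea is defective in C57BL/6 mice. Cd74 encodes the invariant chain, which blocks the groove and escorts new molecules to endosomes, where proteases of the cathepsin family trim it to a short fragment. The H2-DM heterodimer (H2-DMa with H2-DMb1 or H2-DMb2) then removes that fragment and lets peptides bind. Ciita is the master coactivator of the whole set: it binds no DNA itself and is held at class II promoters by a complex of RFX, CREB and NF-Y proteins on conserved X and Y boxes. In macrophages its own promoter responds strongly to interferon-gamma, in part through IRF1. In mm10, with RefSeq's positions, Cd74 lies on chromosome 18 (60803849 to 60812652) and Ciita on chromosome 16 (10480014 to 10531064), apart from the other members.

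The other 6 genes form a block on chromosome 17, again in mm10 from RefSeq: H2-DMa (34119693 to 34139101), H2-DMb2 (34143229 to 34151553), H2-DMb1 (34153191 to 34160229), H2-Ab1 (34263227 to 34269418), H2-Aa (34282744 to 34287823, minus strand) and H2-Eb1 (34305867 to 34316674). Whether the counting used strand is not given in the sources used here, and without strand reads of overlapping genes cannot be told apart. H2-DMa overlaps Brd2 on the opposite strand over 3094 bases, and Ciita overlaps Dexi on the opposite strand over 25888 bases. H2-DMb1 and H2-DMb2 are near-copies: their transcripts were 94.7% identical over 1219 aligned bases, so the split of reads between them is uncertain. In the last 500 bases, where oligo-dT libraries take most reads, identity was 74.6%.

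The 150 bases before the start site are shown for the members that hold an X core and a Y core in the RefSeq promoter table (GRCm38.p6), because the motifs are what the set is known to share. Capitals mark the matches: ATTGG is the Y box core (CCAAT on the other strand), AACNGATG the X1 box core bound by RFX and TGACGTCA the X2 box core bound by CREB-family proteins. The table had entries for 5 of the 8 members (H2-Aa, H2-Eb1, H2-DMa, H2-DMb1 and H2-DMb2).
H2-Aa (chr17:34287824-34287973, minus strand): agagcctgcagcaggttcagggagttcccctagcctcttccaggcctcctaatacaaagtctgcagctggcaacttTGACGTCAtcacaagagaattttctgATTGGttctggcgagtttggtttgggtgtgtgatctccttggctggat
H2-Eb1 (chr17:34305717-34305866, plus strand): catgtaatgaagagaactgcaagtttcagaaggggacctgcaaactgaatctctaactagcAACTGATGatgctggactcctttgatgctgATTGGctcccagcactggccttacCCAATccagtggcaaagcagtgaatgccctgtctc
H2-DMb1 (chr17:34153041-34153190, plus strand): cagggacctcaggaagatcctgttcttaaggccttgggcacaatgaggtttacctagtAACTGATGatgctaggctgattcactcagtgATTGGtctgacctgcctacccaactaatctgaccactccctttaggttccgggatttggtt
H2-DMb2 (chr17:34145099-34145248, plus strand): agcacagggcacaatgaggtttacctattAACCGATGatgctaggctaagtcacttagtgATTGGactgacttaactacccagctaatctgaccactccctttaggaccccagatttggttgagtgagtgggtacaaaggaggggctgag

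The first base of the X core stood 30 bases before the first base of the Y core in H2-Eb1, 31 bases before it in H2-DMb1 and H2-DMb2, and 26 bases before it in H2-Aa, where the X core is the X2 box. Both strands of the 250 bases before each start were searched. Of 32851 RefSeq promoters, 33.8% held the Y core, 1.98% the X1 core, 1.55% the X2 core and 1.21% the Y core together with either X core. The letters were chosen with these promoters in view, so the match is a description of them. H2-DMa has 2 listed starts, 34122832 and 34125518, and its windows held a single match, a Y core 198 bases before the start at 34125518. Both starts lie inside the gene span given above, which begins at 34119693, and the bases before that position were not searched. The listed start of H2-DMb2, 34145249, likewise lies inside its span, which begins at 34143229.

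Total counts ran from 3068863 to 15585423 per library (median 5596111). A count of 3, the most that an observed 0 allows, equals 0.192 to 0.978 CPM against total counts without TMM. All other CPM values are counts scaled to library size with TMM, which moves this floor either way. In library 4 of knockout cells with LPS in low medium, 3 counts equal 0.978 CPM without TMM and 1.46 CPM with it. In library 2 of resting wild-type cells in low medium they equal 0.441 and 0.384 CPM. The libraries mention no molecular identifiers, so floors and intervals cover counting error only. In most groups library 1 was closest to library 3, and library 2 to library 4. For these 16 pairs, the chi-square of their counts divided by its degrees of freedom came to 4.17 to 10.25 in 14 cases, and all remaining pairings within groups gave 10.26 to 86.0. The labels do not say whether such pairs are duplicates, so p-values measure only the spread between these libraries, which may be technical. Of the 36 member calls below, 25 also passed with the pairs summed to 2 samples a group, and the 11 that did not are named where they are reported. Trem2 itself stood at 5.88 to 115 CPM in the 4 knockout group means against 226 to 460 CPM in wild-type, with no overlap in any condition. Macrophage markers were abundant (8 markers summed to 4393 to 11170 CPM, with Adgre1 and Csf1r over 230 CPM in every group mean). The NK marker Ncr1 had 0 counts in all libraries, and the T cell marker Cd3e had 1 count in 1 group.

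On the TMM scale LPS raised the 3 chain genes and Cd74 in both genotypes and both media. In wild-type cells in normal medium, H2-Ab1 rose 4.4-fold, H2-Eb1 3.68-fold, H2-Aa 2.99-fold and Cd74 2.61-fold, while H2-DMa and H2-DMb1 overlapped between the groups and did not pass. This comparison asks how the inflammatory stimulus alone changes the set. Of the 8 members 4 passed, all higher, beside 36.1% of all 11244 genes tested in either direction (edgeR, quasi-likelihood, with p adjusted by Benjamini-Hochberg and a threshold of 0.05, here and below).

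In wild-type cells in normal medium, H2-Ab1 read 8.70, 6.99, 9.87 and 10.1 CPM without LPS in libraries 1 to 4, and 38.8, 36.65, 42.7 and 38.3 CPM with LPS. The lowest library with LPS was thus far above the highest without it, and the log2 change was 2.14 ± 0.20 (SE, edgeR adjusted p = 2.64e-11). H2-Aa, its partner chain, read 13.2, 7.96, 8.41 and 7.03 CPM without LPS and 29.9, 23.1, 31.6 and 25.7 CPM with it, a log2 change of 1.58 ± 0.23. H2-Eb1 read 6.99, 4.68, 5.89 and 7.88 CPM without LPS and 19.9, 19.6, 30.3 and 23.25 CPM with it (1.88 ± 0.23). Cd74 read 20.4, 16.9, 19.35 and 20.8 CPM without LPS and 49.97, 47.0, 52.0 and 52.9 CPM with it (1.38 ± 0.18). None of the 4 genes overlapped between the groups. The median log2 change of all genes tested was -0.04, against 1.58 for the 7 members tested.

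In low medium the same 4 genes rose in wild-type cells, with 60.7% of all genes called. H2-Ab1 rose from 13.8, 12.4, 14.9 and 17.5 CPM to 53.0, 68.2, 45.65 and 55.6 CPM (log2 change 1.93 ± 0.20). H2-Aa went from 21.2, 12.3, 18.7 and 17.8 CPM to 26.8, 43.8, 33.1 and 42.35 CPM (1.06 ± 0.24), and H2-Eb1 from 11.2, 9.86, 11.4 and 12.8 CPM to 22.2, 26.45, 19.8 and 26.95 CPM (1.08 ± 0.24). Cd74 went from 27.6, 19.2, 28.02 and 25.35 CPM to 64.9, 64.1, 77.2 and 69.7 CPM (1.46 ± 0.18). All 4 genes again separated the groups on the TMM scale. On that scale these wild-type libraries with LPS in low medium held the highest mean of any group for each of them. Against total counts H2-Aa and H2-Eb1 overlapped between the groups, while H2-Ab1 and Cd74 did not. In library 1, H2-Aa had 166 of 6481139 counts without LPS and 81 of 4547552 with it. In library 2 it had 96 of 6802071 and 106 of 3309701.

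In knockout cells the chain genes and Cd74 rose too. In normal medium 5 of 8 members passed, all higher, beside 42.7% of all genes. H2-Ab1 rose from 7.34, 8.35, 6.96 and 7.91 CPM to 37.1, 32.1, 35.6 and 30.7 CPM (log2 change 2.15 ± 0.21). H2-Aa went from 6.72, 12.45, 6.88 and 10.4 CPM to 39.5, 27.9, 32.1 and 30.2 CPM (1.85 ± 0.24), and H2-Eb1 from 8.69, 5.62, 5.88 and 6.20 CPM to 22.3, 20.5, 26.5 and 21.6 CPM (1.78 ± 0.23). Cd74 rose by 1.52 ± 0.18, from 13.3 to 24.3 CPM across libraries without LPS to 45.3 to 66.6 CPM with it. No library without LPS reached the range with LPS for any of these genes.

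In knockout cells in low medium all 7 members tested passed, 5 higher and 2 lower, beside 67.5% of all genes, the highest share of any comparison. H2-Ab1 went from 15.2, 7.19, 11.4 and 11.02 CPM to 17.3, 34.3, 26.6 and 29.6 CPM, a log2 change of 1.28 ± 0.21. The gap between groups was narrow, set by library 1 on both sides. H2-Aa went from 11.7, 11.55, 14.03 and 7.93 CPM to 18.8, 23.3, 13.6 and 21.85 CPM (0.77 ± 0.24), and here the groups overlapped. Set against total counts without TMM, H2-Aa did not rise here. It had 77, 159, 153 and 146 counts without LPS in libraries of 5333519, 11758309, 8776749 and 15585423 counts. With LPS it had 61, 70, 53 and 45 counts in libraries of 5419465, 4889484, 6248835 and 3068863 counts. In the same libraries H2-Eb1 had 70, 64, 121 and 171 counts without LPS and 52, 47, 87 and 43 with it. H2-Ab1 had 100, 99, 124 and 203 counts against 56, 103, 104 and 61. Cd74 had 142, 198, 227 and 285 counts against 136, 167, 200 and 107. Against total counts each of these genes overlapped between the groups. All 7 calls of this comparison held with RLE size factors, which also rescale the libraries. H2-Eb1 rose by 1.08 ± 0.23 and Cd74, from 21.6, 14.4, 20.8 and 15.5 CPM to 42.0, 55.65, 51.2 and 51.95 CPM, by 1.48 ± 0.18. With TMM the LPS response of Cd74 thus lay between 1.38 and 1.52 on the log2 scale in all 4 settings. That of H2-Ab1 lay between 1.28 and 2.15. Changes against total counts were not fitted.

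**Figure D1:**
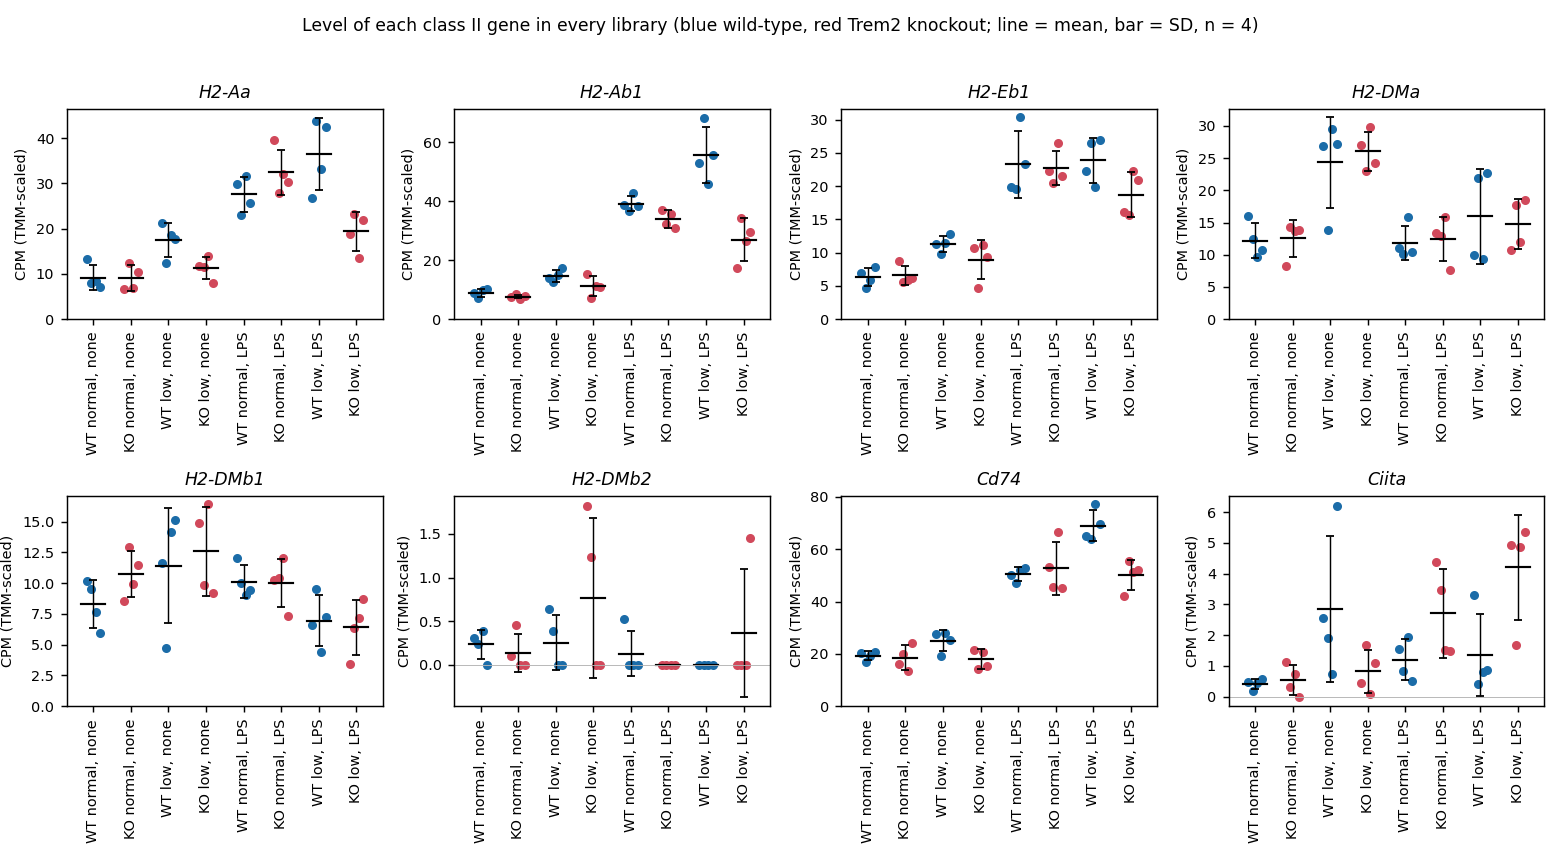
TMM-scaled CPM (y axis, from 0) of each of the 8 genes in the 8 groups (x axis), with each library as a point, the mean as a line and the SD as a bar (n = 4). H2-Aa, H2-Ab1, H2-Eb1 and Cd74 are higher in the 4 groups with LPS, H2-DMa is highest in low medium without LPS, and H2-DMb2 is at or near 0 in most libraries.

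Dendritic cells also express this set, and the RNA of a few could add to it. Of the 10 dendritic cell markers listed, 4 passed the filter on low counts, and their 10 summed to 3.19 to 12.6 CPM per library without LPS and 4.48 to 26.9 CPM with it. The defining marker Flt3 had 1 to 10 counts per group (means of 0.0759 to 0.339 CPM). The other, Zbtb46, had 0 counts in 5 of the 8 groups and 1 count in each of 2. It had 6 counts in wild-type cells given LPS in low medium, where the chain genes were highest on the TMM scale. Ccr7, a chemokine receptor also found on activated cells, rose with LPS in all 4 settings, for example from 0.0194 to 1.98 CPM in normal medium in wild-type cells, and Itgax rose in 3 of the 4. The part of these markers in the result was not tested. B cells express class II as well: their 8 markers summed to 2.52 to 6.91 CPM per library without LPS and 0.486 to 4.63 CPM with it, with Pax5 at 0 counts in all libraries and Ms4a1 at 0 to 4 counts per group. Neutrophil markers (7 with an identifier) summed to 47.4 to 197.9 CPM without LPS and 77.5 to 362.9 CPM with it, and their part in the result was not tested. In such bulk RNA fewer cells of a type and less RNA per cell cannot be told apart.

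The H2-DM genes did not follow the chains they serve. In normal medium with LPS, H2-DMa read 11, 10.1, 15.8 and 10.4 CPM in wild-type cells, within the 9.715 to 16 CPM measured without LPS (log2 change -0.05 ± 0.27, 95% interval -0.60 to 0.49). H2-DMb1 read 12.0, 10.0, 9.05 and 9.40 CPM against 10.2, 9.48, 7.65 and 5.91 CPM without LPS (0.28 ± 0.28, interval -0.28 to 0.85). Knockout cells in normal medium gave -0.00 ± 0.28 for H2-DMa and -0.09 ± 0.29 for H2-DMb1. These intervals reach no more than 0.85, below the lower bounds of the Cd74 and chain gene intervals in the same cells (1.02 or more).

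In low medium both H2-DM genes were lower with LPS in knockout cells. H2-DMa went from 27.05, 23.0, 29.8 and 24.3 CPM to 10.8, 17.7, 12.0 and 18.45 CPM, and all libraries with LPS lay below all without it. The log2 change was -0.84 ± 0.28 (edgeR adjusted p = 0.00825), and with libraries summed in pairs it was -0.81 with edgeR adjusted p = 0.0576. H2-DMb1 went from 14.9, 9.88, 16.4 and 9.18 CPM to 3.40, 6.33, 7.17 and 8.74 CPM, again with no overlap (-0.99 ± 0.31, edgeR adjusted p = 0.00572). The median over all genes tested was -0.36 in this comparison, and -0.25 with RLE size factors.

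Wild-type cells in low medium gave values of similar size that did not pass. H2-DMa read 26.9, 13.8, 29.5 and 27.2 CPM without LPS and 9.94, 21.9, 9.29 and 22.7 CPM with it (log2 change -0.62 ± 0.28, edgeR adjusted p = 0.055). The libraries with LPS fell into the pairs noted above, 1 and 3 low and 2 and 4 high, and library 2 without LPS stood well below its group. H2-DMb1 read 11.6, 4.74, 14.2 and 15.1 CPM without LPS and 6.63, 9.51, 4.44 and 7.27 CPM with it (-0.71 ± 0.32, edgeR adjusted p = 0.0532). Without library 2 of the cells lacking LPS both genes passed (H2-DMa -0.85 with edgeR adjusted p = 0.0126, H2-DMb1 -0.97 with 0.00516), as both did without library 2 of the cells with LPS. H2-DMa also passed without library 4 of the latter and with no filter on low counts (-0.66, edgeR adjusted p = 0.0424), and H2-DMb1 passed with H2-DMb2 counts added to it (-0.74, edgeR adjusted p = 0.0448). Brd2, the antisense neighbour of H2-DMa, rose with LPS in all 4 settings, by 0.95 to 1.45 on the log2 scale, the opposite direction to H2-DMa in low medium.

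H2-DMb2 was barely detected. It reached at most 17 counts in a library, had 0 counts in all 4 libraries of wild-type cells with LPS in low medium and of knockout cells with LPS in normal medium, and was not tested.

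Set against the chain genes within each library, H2-DM counts fell with LPS in every group. Without LPS there were 85.1 ± 20.5 (SD) counts of H2-DMa plus H2-DMb1 per 100 counts of the 3 chain genes in normal medium in wild-type cells, and 80.6 ± 18.8 in low medium. With LPS the ratios were 24.45 ± 1.53 and 19.2 ± 4.88. In knockout cells they were 100.1 ± 19.1 in normal and 124 ± 12.5 in low medium without LPS, and 25.1 ± 5.35 and 32.1 ± 4.32 with it. The lowest library without LPS (53.7) lay above the highest with it (37.6). Cd74 per 100 chain counts moved in opposite directions with LPS: wild-type cells went from 80.0 ± 6.665 to 56.5 ± 4.88 (normal medium) and knockout cells from 57.7 ± 2.78 to 77.5 ± 4.61 (low medium), each with no overlap. The other 2 pairs overlapped, at 78.6 ± 14.3 and 59.0 ± 7.92 without and with LPS (knockout, normal medium) and 57.6 ± 4.24 and 61.0 ± 13.5 (wild-type, low medium). These ratios are a description, with no test.

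**Figure D2:**
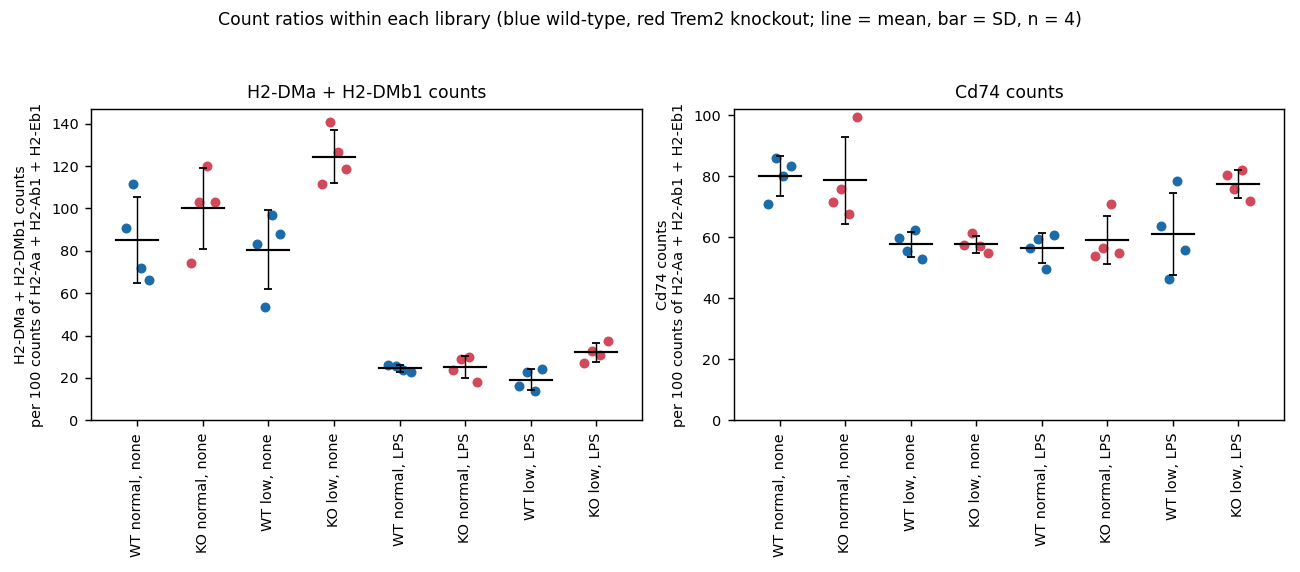
Counts of H2-DMa plus H2-DMb1 (left) and of Cd74 (right) per 100 counts of H2-Aa, H2-Ab1 and H2-Eb1 in each library (y axes from 0), by group (x axis), with mean and SD (n = 4). The H2-DM ratio is 53.7 or higher in all libraries without LPS and 37.6 or lower in all with LPS, while the Cd74 ratio falls with LPS in normal medium for wild-type cells and rises in low medium for knockout cells.

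Ciita, the coactivator, was counted at a low level, 0 to 37 counts per library, so its changes carry wide errors. In knockout cells LPS raised it in both media. In normal medium it read 1.14, 0.304, 0.746 and 0 CPM without LPS and 4.37, 3.46, 1.52 and 1.49 CPM with it (log2 change 2.12 ± 0.72, edgeR adjusted p = 0.0156). That call was lost without library 1 of the cells with LPS or library 4 of those without (edgeR adjusted p up to 0.0677), and with libraries summed in pairs (2.04, edgeR adjusted p = 0.0725). In low medium it read 0.456, 1.67, 0.0917 and 1.09 CPM without LPS and 4.94, 1.67, 4.87 and 5.34 CPM with it (2.24 ± 0.68, edgeR adjusted p = 0.00407), and library 2 was the one that did not separate.

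Wild-type cells in low medium showed no such rise. Ciita read 2.55, 1.92, 0.730 and 6.21 CPM without LPS and 3.31, 0.413, 0.808 and 0.856 CPM with it, a log2 change of -0.99 ± 0.75 that did not pass (edgeR adjusted p = 0.256). The test of the difference between the genotypes in this response gave 3.22 ± 1.0 on the log2 scale (edgeR adjusted p = 0.0251), the single member called there, beside 16% of all genes. It did not pass without knockout library 3 lacking LPS, without wild-type library 2 or 4 with LPS, or without wild-type library 4 lacking LPS (edgeR adjusted p up to 0.0855), nor with libraries summed in pairs (3.21, edgeR adjusted p = 0.164). In wild-type cells in normal medium Ciita went from 0.466, 0.182, 0.459 and 0.563 CPM to 1.56, 0.825, 1.95 and 0.495 CPM (1.598 ± 0.75, edgeR adjusted p = 0.0932). Dexi, which overlaps Ciita on the other strand, fell with LPS by 1.25 ± 0.41 in knockout cells in low medium and did not pass in the other 3 settings.

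The order of the groups by mean Ciita was not their order by the genes it is known to control, though every step of the Ciita order overlapped. Chain gene CPM summed to 98.6 to 138 in wild-type cells with LPS in low medium, where Ciita was 0.413 to 3.31 CPM. In knockout cells with LPS in low medium the sum was 52.2 to 73.3 and Ciita 1.67 to 5.34 CPM. Ciita had 15 counts over the 4 wild-type libraries and 51 over the 4 knockout libraries, and this difference did not pass (edgeR adjusted p = 0.15). Counts this low leave its order and its correlations uncertain. Over the 32 libraries log2 CPM of Ciita correlated with that of H2-Ab1 at Pearson r = 0.381 and of H2-Eb1 at 0.478. H2-Ab1 correlated with H2-Eb1 at 0.948, with Cd74 at 0.953 and with H2-Aa at 0.911, and H2-DMa with H2-DMb1 at 0.551. H2-Ab1 correlated with H2-DMa at -0.117 and with H2-DMb1 at -0.194. The libraries share their groups and depth, so these values describe the table and carry no p.

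**Figure D3:**
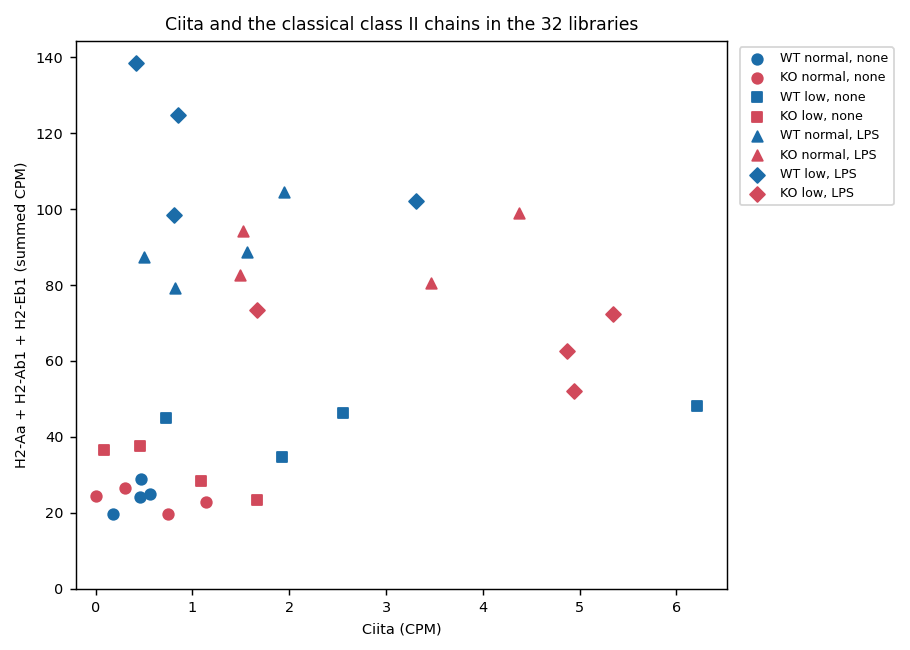
Summed CPM of H2-Aa, H2-Ab1 and H2-Eb1 (y axis, from 0) against CPM of Ciita (x axis) in the 32 libraries, coloured by genotype and shaped by medium and LPS. Wild-type libraries with LPS in low medium (blue diamonds) span sums of 98.6 to 138 and include the highest, and 3 of the 4 knockout libraries of that condition (red diamonds) lie far to the right at a lower sum.

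In resting wild-type cells 5 of the 8 members rose in low medium, beside 44.3% of all genes in either direction: Ciita 6.82-fold, H2-DMa 1.99-fold, H2-Aa 1.90-fold, H2-Eb1 1.79-fold and H2-Ab1 1.65-fold. Ciita was higher in all 4 low-medium libraries than in any normal-medium library (log2 change 2.77 ± 0.71, edgeR adjusted p = 0.00179), and so were H2-Ab1 (0.72 ± 0.20) and H2-Eb1 (0.84 ± 0.23). H2-DMa rose by 0.99 ± 0.26 and H2-Aa by 0.93 ± 0.23, each with one low-medium library, the second, inside the normal-medium range. Cd74 (0.37 ± 0.18, edgeR adjusted p = 0.0898) and H2-DMb1 (0.44 ± 0.28) did not pass. Without that second library both did (edgeR adjusted p = 0.039 and 0.0315), and Cd74 also did with DESeq2 (0.40, adjusted p = 0.0499). Brd2 rose from 251 to 562 CPM in this comparison (1.16 ± 0.17), close to the change of H2-DMa on the other strand, and its part in that change was not tested. Cell type markers moved here too: 5 of 8 macrophage markers rose and 1 fell (Adgre1 1.06 ± 0.15, Csf1r 1.04 ± 0.195), as did 1 of 4 dendritic cell markers tested, Siglech (0.0892 to 3.70 CPM), Cd4 (0.389 to 1.75 CPM) and 1 of 7 neutrophil markers, S100a9 (0.60 ± 0.19), and neither B cell marker tested passed. Their part in the result was not tested.

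In resting knockout cells low medium raised 2 of 8 members, beside 48.2% of all genes. In these cells low medium also raised 5 of 7 neutrophil markers (S100a9 from 26.96 to 86.0 CPM), 4 of 8 macrophage markers (1 fell), Cd22 of the 2 B cell markers tested (0.751 to 3.42 CPM), Cd4 (1.73 to 6.97 CPM) and Siglech (0.1795 to 7.17 CPM), and lowered Itgax (1.74 to 0.528 CPM), and their part in the result was not tested. H2-DMa rose from 8.275, 14.3, 13.8 and 13.8 CPM to 27.05, 23.0, 29.8 and 24.3 CPM with no overlap (log2 change 1.06 ± 0.26), and Brd2 rose by 0.94 ± 0.17. H2-Ab1 rose by 0.54 ± 0.21 (edgeR adjusted p = 0.0288). The H2-Ab1 call was lost without low-medium library 1 or normal-medium library 3 (edgeR adjusted p up to 0.116), with libraries summed in pairs (0.142) and in a fit of the compared groups alone (0.117). H2-Eb1 (0.42 ± 0.23) passed without low-medium library 2 or normal-medium library 1 (edgeR adjusted p down to 0.0143). Ciita gave 0.54 ± 0.72 in these cells, with a 95% interval of -0.92 to 2.002 that includes a change of several-fold. The test of whether the medium acted differently in the genotypes called no member, beside 4.62% of all genes, and its value for Ciita was -2.23 ± 1.03 (edgeR adjusted p = 0.252, unadjusted interval -4.30 to -0.15).

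With LPS present, cells in low and normal medium were compared in each genotype. In wild-type cells H2-Ab1 (log2 change 0.51 ± 0.19, edgeR adjusted p = 0.0309) and Cd74 (0.45 ± 0.18, edgeR adjusted p = 0.0363) were higher in low medium, 2 of 8 members beside 45.6% of all genes. Both separated the groups, yet both calls were lost with libraries summed in pairs (edgeR adjusted p = 0.127 and 0.195) and without the filter on low counts (0.0767 and 0.0928). H2-Ab1 also lost it without low-medium library 2 or normal-medium library 1, 2 or 4 (edgeR adjusted p up to 0.12), and Cd74 without low-medium library 3 or 4 or any normal-medium library (up to 0.097). In knockout cells H2-Aa was lower in low medium, 1 of 8 members beside 59.2% of all genes. H2-Aa read 18.8, 23.3, 13.6 and 21.85 CPM in low medium, all below the 27.9 to 39.5 CPM of normal medium (-0.75 ± 0.24, edgeR adjusted p = 0.0072, and 0.0822 with libraries summed in pairs). H2-DMb1 (-0.67 ± 0.32) passed there without library 4 of either medium (edgeR adjusted p down to 0.0477).

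Genotypes were compared in each of the 4 conditions. Trem2 lies on chromosome 17 (48346401 to 48352276 in mm10), the chromosome that also holds H2-Aa and H2-Ab1. Whether sequence linked to the knockout allele differs between the genotypes was not tested. In low medium with LPS, 2 of 8 members were lower in knockout cells, beside 19.1% of all genes. H2-Ab1 stood at 17.3, 34.3, 26.6 and 29.6 CPM in knockout and at 53.0, 68.2, 45.65 and 55.6 CPM in wild-type cells, and its log2 change was -1.05 ± 0.20 (edgeR adjusted p = 0.000344), a level 2.07-fold lower. H2-Aa stood at 18.8, 23.3, 13.6 and 21.85 CPM against 26.8, 43.8, 33.1 and 42.35 CPM (-0.92 ± 0.25, edgeR adjusted p = 0.00732). No knockout library reached a wild-type library for either gene. Whether these differences depended on LPS was tested in low medium, and neither passed (H2-Aa -0.285 ± 0.34, edgeR adjusted p = 0.588, H2-Ab1 -0.65 ± 0.28, 0.112). With libraries summed in pairs H2-Ab1 still passed, while H2-Aa gave -0.91 with edgeR adjusted p = 0.121.

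Cd74 in the same cells was 42.0, 55.65, 51.2 and 51.95 CPM against 64.9, 64.1, 77.2 and 69.7 CPM, also without overlap, at -0.46 ± 0.18 (edgeR adjusted p = 0.0708). H2-Eb1 gave -0.35 ± 0.24, H2-DMa -0.12 ± 0.30 and H2-DMb1 -0.14 ± 0.35, with overlapping libraries. Ciita went the other way, 1.55 ± 0.76 (edgeR adjusted p = 0.15). Other markers moved with genotype in these libraries: Itgax, an integrin of dendritic cells and macrophages, was lower in knockout cells by 2.75 ± 0.52 on the log2 scale (1.44 against 10.35 CPM), the only one of 4 dendritic cell markers tested that passed. Of 2 B cell markers tested Cd79b, a chain of the B cell receptor complex, was lower (2 counts over the 4 knockout libraries against 16 in wild-type), the direction of H2-Aa and H2-Ab1. Cd4 was higher by 2.001 ± 0.56, 1 of 7 neutrophil markers (S100a9, 0.76 ± 0.19) was higher, and 2 of 8 macrophage markers were higher. The part of these markers in the result was not tested. Flt3 was at 0.339 and 0.103 CPM in the knockout and wild-type groups.

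In the other 3 conditions no member passed at the threshold, though some lay close to it. In low medium without LPS, with 16.7% of all genes called, H2-Aa (-0.64 ± 0.23, edgeR adjusted p = 0.0551), Cd74 (-0.48 ± 0.18, edgeR adjusted p = 0.0625) and Ciita (-1.67 ± 0.65, edgeR adjusted p = 0.0738) lay nearest to the threshold. H2-Aa and Cd74 passed with RLE size factors (edgeR adjusted p = 0.0409 and 0.0427) and with DESeq2 (0.0306 and 0.0222), and H2-Aa in a fit of the compared groups alone (edgeR, 0.0448). Leaving out wild-type library 2 brought H2-Aa and Cd74 past it, as did knockout library 3 for H2-Aa and 1 for Cd74, and wild-type library 3 or knockout library 2 did so for Ciita (edgeR adjusted p down to 0.0307, 0.0347 and 0.0391). In normal medium the knockout differences of the chain genes and Cd74 were between -0.22 and 0.075 without LPS (1.86% of all genes called) and between -0.21 and 0.23 with it (4.04% called). Their 95% intervals stayed between -0.64 and 0.69, so a change of 2-fold in these 4 genes lies outside them.

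The genotype difference of H2-Aa with LPS depended on the medium. It was 0.23 ± 0.23 in normal and -0.92 ± 0.25 in low medium, and the test of that dependence gave -1.16 ± 0.33 (edgeR adjusted p = 0.0351), 1 member beside 5.49% of all genes. The H2-Aa call was lost without wild-type library 2 or 4 or knockout library 1 or 3 of either medium (edgeR adjusted p up to 0.0859) and with libraries summed in pairs (-1.14, edgeR adjusted p = 0.376). H2-Ab1 gave -0.84 ± 0.28 (edgeR adjusted p = 0.0647) and passed with DESeq2 (-0.78, adjusted p = 0.0481) and without knockout low-medium library 2 (edgeR adjusted p = 0.0444). Cd74 gave -0.53 ± 0.25 and H2-Eb1 -0.32 ± 0.32, and neither passed.

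The LPS response of knockout cells was smaller in low than in normal medium for H2-Aa (-1.08 ± 0.34, edgeR adjusted p = 0.0126) and H2-Ab1 (-0.88 ± 0.29, edgeR adjusted p = 0.0166), 2 of 8 members beside 35.3% of all genes. Both were lost with libraries summed in pairs (edgeR adjusted p = 0.134 and 0.15), and H2-Ab1 also with RLE size factors (-0.71, edgeR adjusted p = 0.0525) and without resting low-medium library 1 (0.0505). H2-Eb1 (-0.70 ± 0.33) passed without resting low-medium library 2 or normal-medium library 1, and H2-DMa (-0.84 ± 0.39) without library 4 in normal medium with LPS. In wild-type cells the same test called no member, beside 23.6% of all genes, with H2-Aa at -0.52 ± 0.33 and H2-Eb1 at -0.80 ± 0.33. There H2-Eb1 passed without resting normal-medium library 4, H2-DMb1 without resting low-medium library 2, and Ciita without low-medium library 1 with LPS or 3 without it (edgeR adjusted p down to 0.0449, 0.0172 and 0.0249). The test of genotype on the LPS response in normal medium called no member, beside 0.534% of all genes, and in low medium H2-Ab1 (-0.65 ± 0.28) passed without resting knockout library 2 alone (edgeR adjusted p = 0.0405).

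**Figure D4:**
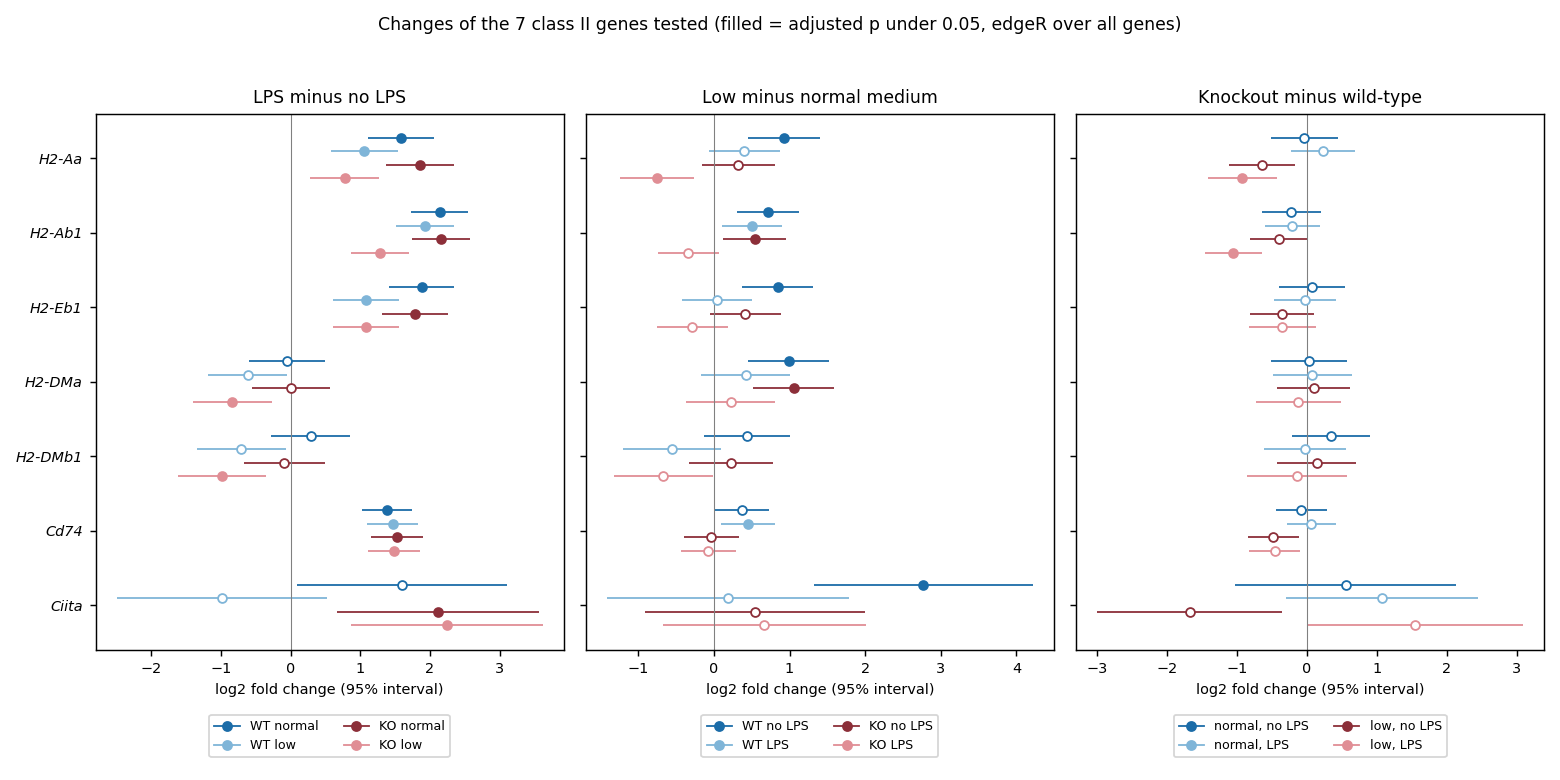
Log2 fold change with 95% interval (x axes) of the 7 genes tested (y axis) for LPS, for the medium and for genotype, in the 4 settings of each, with filled points for adjusted p under 0.05. The LPS panel shows the chain genes and Cd74 to the right of 0 in every setting and H2-DMa and H2-DMb1 with intervals that include 0 or lie left of it, and the genotype panel has 2 filled points, H2-Aa and H2-Ab1 in low medium with LPS.

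Known regulators of class II were measured beside the set. In wild-type cells in normal medium, LPS raised 9 of 16 and lowered 2, beside 36.1% of all genes called. Irf1, which acts on the Ciita promoter, rose from 31.5 ± 1.45 to 315 ± 14.9 CPM (SD, log2 change 3.32 ± 0.16), and Spi1, the macrophage factor PU.1, rose by 1.19 ± 0.16. Socs1, which dampens interferon signalling, rose by 6.27 ± 0.355, Socs3, its relative, by 7.31 ± 0.32 and Prdm1, a repressor of Ciita in other lineages, by 3.60 ± 0.29. Of the promoter complex, Rfx5 rose by 0.82 ± 0.28, Rfxap (-0.86 ± 0.235) and Nfya (-0.67 ± 0.26) fell, and Rfxank, Nfyb, Nfyc and Creb1 did not pass. Irf8 rose by 0.63 ± 0.20. Ifng had 0 counts in all 32 libraries.

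In low medium LPS raised 9 regulators and lowered 1 in wild-type cells, beside 60.7% of all genes called, and raised 9 and lowered 2 in knockout cells, beside 67.5%. In normal medium it raised 8 and lowered 0 in knockout cells, beside 42.7%. The shares of the 16 called in low medium are near those of all genes. For LPS-treated knockout cells in low medium, Rfxank, a subunit of the RFX complex, went from 6.87 ± 0.70 to 0.928 ± 0.80 CPM (SD, log2 change -3.01 ± 0.54), on 10 counts over the 4 libraries with LPS. Rfx5 (1.19 ± 0.28) and Nfyb (1.22 ± 0.19) rose there, and Rfxap, Nfya, Nfyc and Creb1 did not pass. Irf1 reached 951 ± 41.9 CPM in those cells and 726 ± 157 CPM in wild-type cells, with a genotype difference of 0.39 ± 0.15 that did not pass (edgeR adjusted p = 0.0614). Of the regulators, Irf8 (0.71 ± 0.20) was higher in LPS-treated knockout cells in low medium, where H2-Aa and H2-Ab1 were lower, and Rfxank gave -1.72 ± 0.63 (edgeR adjusted p = 0.0517). Receptors and kinases of the interferon-gamma pathway were higher there too, 3 of 4 tested: Ifngr1 by 0.88 ± 0.26, Jak1 by 0.75 ± 0.16 and Jak2 by 0.53 ± 0.17. Of all genes 19.1% were called between genotypes in that condition.

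Most class I presentation genes also rose with LPS. Of the 16 tested, 13 rose and none fell in normal medium in either genotype, and 15 rose and none fell in low medium in either genotype. Of all genes, 36.1% (wild-type) and 42.7% (knockout) were called in normal medium, in either direction. In low medium the shares were 60.7% and 67.5%. Their median log2 change in normal medium was 0.90 (wild-type) and 1.37 (knockout), against 1.58 and 1.78 for the 7 class II members tested. For low medium the class I medians were 1.85 (wild-type) and 1.97 (knockout), against 1.06 and 1.08. In wild-type cells in low medium the peptide transporter genes Tap1 and Tap2 rose by 3.50 ± 0.21 and 2.88 ± 0.22, the proteasome activator Psme2 by 2.96 ± 0.18 and the immunoproteasome subunit Psmb10 by 2.69 ± 0.19. Medium altered the LPS response of 9 class I genes in wild-type cells, all toward a larger response in low medium, and no class II member passed that test. It called 23.6% of all genes. The lists themselves were not compared by a test. Co-stimulatory genes rose in all 5 tested in normal medium and in 4 of 5 in low medium, in both genotypes, with Cd40 at 5.19 ± 0.20 in wild-type cells in normal medium.

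**Figure D5:**
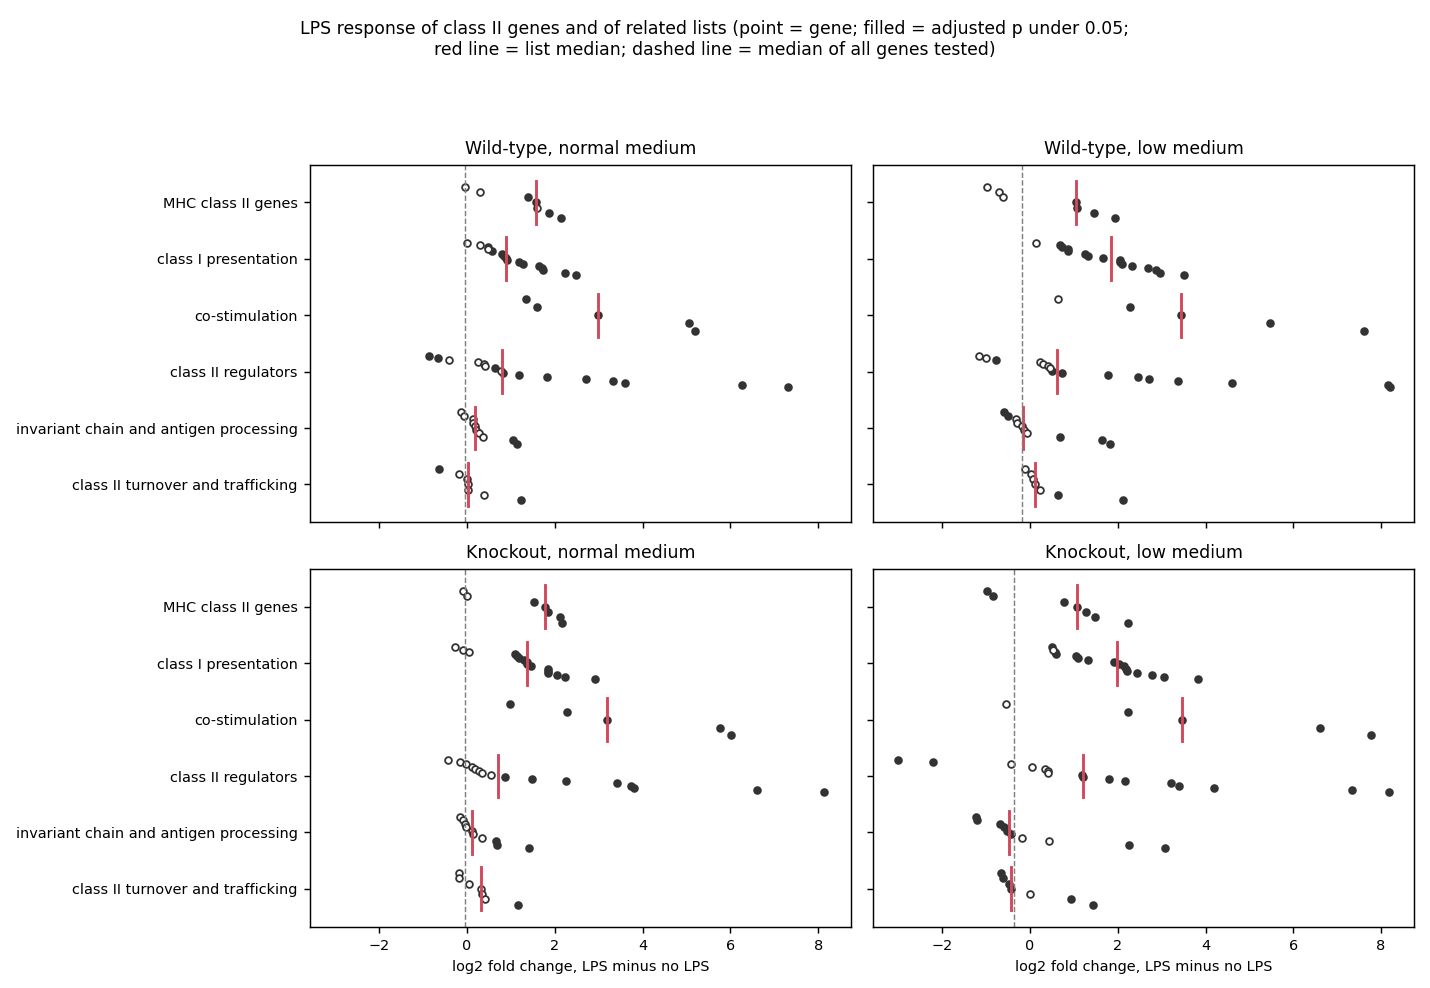
Log2 fold change with LPS (x axes) of each gene tested in the class II set and 5 related lists (y axis) in the 4 combinations of genotype and medium, with filled points for adjusted p under 0.05, red lines for list medians and dashed lines for the median of all genes tested. The class I and co-stimulation genes lie at or right of 0 with few exceptions, while the class II set splits into rising chain genes and Cd74 and static or falling H2-DM genes.

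The medium also moved the proteases that trim the invariant chain and the genes that work with them. In resting wild-type cells low medium raised 7 of 10 processing genes and lowered 2, where 44.3% of all genes were called. Ctss, cathepsin S, the main protease of the last trimming step, rose by 0.77 ± 0.25, Ctsh by 1.67 ± 0.17, Sppl2a, which removes the membrane stub of Cd74, by 0.78 ± 0.15, and the protease inhibitor Cst3 by 1.79 ± 0.21. Ctsl fell by 0.59 and Ifi30, the lysosomal thiol reductase, fell by 0.56 on the log2 scale. Marchf1, the ubiquitin ligase that sends surface class II for degradation, went from 23.4 ± 4.94 to 93.8 ± 8.63 CPM (SD, log2 change 1.997 ± 0.26). Of the 7 turnover genes Cd37, a tetraspanin, also rose (0.74 ± 0.19), while Marchf8, a relative of Marchf1, went from 42.9 to 26.55 CPM (-0.69 ± 0.18) and Cd9 fell by 0.45 ± 0.15. Marchf1 was also higher in low medium in resting knockout cells (2.32 ± 0.26) and with LPS in wild-type (2.26 ± 0.26) and knockout cells (2.84 ± 0.27). In resting wild-type cells the medium also raised Irf8 (1.57 ± 0.20), Irf1 (1.16 ± 0.15), Creb1 (0.90 ± 0.19) and Ifngr1 (1.38 ± 0.26), and lowered Socs1 (-1.17 ± 0.44).

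In knockout cells in low medium LPS lowered 6 of the 10 processing genes and raised 2, where 67.5% of all genes were called. Ifi30 fell by 1.23 ± 0.18, Ctsd by 1.21 ± 0.16, Lgmn by 0.68 ± 0.18 and Ctsb by 0.60 ± 0.155, whereas Ctsc rose by 3.08 ± 0.145 and Sppl2a by 2.26 ± 0.15. In wild-type cells in low medium, where 60.7% of all genes were called, 3 rose (Ctsc by 1.82 ± 0.14, Sppl2a by 1.63 ± 0.15 and Ctss by 0.69 ± 0.25) and 2 fell (Cst3 by 0.59 ± 0.21 and Ifi30 by 0.49 ± 0.18). Between genotypes in low medium with LPS, where 19.1% of all genes were called, Ctsl (-1.04 ± 0.17) and Ifi30 (-0.87 ± 0.19) were lower in knockout cells and Ctsc (0.56 ± 0.13) higher. There 2 of 5 co-stimulatory genes tested were higher, Cd86 (1.34 ± 0.22) and Cd274 (0.63 ± 0.18). None of the 16 class I genes differed there at the threshold.

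Ranked by TMM-scaled mean, H2-Aa, H2-Ab1, H2-Eb1 and Cd74 shared 1 order at the top, wild-type cells with LPS in low medium. Each of these genes had all 4 groups with LPS above all 4 without it. Neighbours in the order overlapped in most steps. For H2-Ab1 the first group was separate from the second, and for H2-Eb1 and Cd74 the fourth, knockout cells with LPS in low medium, was separate from the fifth, wild-type cells in low medium without LPS. H2-DMa and H2-DMb1 were highest in knockout cells in low medium without LPS (26.0 ± 3.02 and 12.6 ± 3.60 CPM), next to wild-type cells in that condition, and every step of both orders overlapped.

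The genes most like H2-Ab1 over the 32 libraries by Pearson correlation of log2 CPM were Mycl (0.964), Nadk (0.946), Rilpl2 (0.945), Cd47 (0.94) and Cdc42ep2 (0.937). Those most like Cd74 were Mycl (0.96), Cd47 (0.958), Icam1 (0.956), Slc16a10 (0.954) and Ms4a4c (0.952). Ciita had no match as close, with Psme2b first at 0.744 and Layn next at 0.732, followed by Dusp11 (0.728), Slfn10-ps (0.718) and Efcab14 (0.716).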

How the data were processed

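RNA of 32 macrophage libraries was measured by 3'-end sequencing: per the labels' protocols, mRNA was captured on oligo-dT beads, primed with barcoded oligo-dT, pooled by Actb qPCR, ligated to a second linker and amplified by 12 cycles of PCR to strand-specific libraries. The values deposited by the authors are raw whole-number counts, 1 row per gene, with no normalisation. The submitters' processing notes name STAR, HTSeq, DESeq2 and mm10, and versions, annotation and strand setting are not given in the sources used here. Entrez identifiers were matched to symbols for 23969 of 24885 rows (96.3%, 99.5% of counts), and the 916 unmatched rows stayed in the fit.

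Counts were fitted with edgeR 4.0.16 (R 4.3.3) with a mean for each of 8 groups, TMM and filterByExpr at its defaults, which left 11244 genes. Each of 18 contrasts was given a quasi-likelihood F test (two-sided), adjusted by Benjamini-Hochberg over all genes tested, threshold 0.05. Log2 changes carry SE, means carry SD. The fit was run on simulated counts with known changes in a small share of genes, drawn independently for each library. That run does not cover broad changes between groups or libraries alike in pairs. Correlations used log2 CPM with a prior count of 2.

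Alternatives were RLE size factors, DESeq2 1.42.0, no filter on low counts, the compared groups alone, replicate number as a block, libraries summed in pairs, leaving out each library and, chosen after seeing the data, H2-DMb1 with H2-DMb2 counts added. The members, gene lists and alternatives were chosen with earlier results of these data known. Named beyond the members are the RFX, NF-Y and CREB1 regulators, Irf1, Socs1, Irf8 and Spi1, up to 4 called genes per direction of each list in a comparison described, defining cell type markers, Trem2, and the 5 genes most correlated with H2-Ab1, Cd74 and Ciita. Itgax, Ccr7, Cd4, Brd2 and Dexi fall outside the rule and were named after their values were seen. Results for some listed genes are not reported here.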

Additional observations from a re-analysis of the deposited data

Results flagged for a closer look

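Of 62 sets of 4 libraries examined over the members and groups, 7 held a library far from the other 3 by Dixon's criterion, which chance meets in about 1 set in 20. The gap as a share of the range was 0.915 for H2-DMa in resting knockout cells in normal medium, where library 1 read 8.275 CPM and the others 13.8 to 14.3 CPM. It was 0.836 for H2-DMa in resting wild-type cells in low medium, where library 2 read 13.8 CPM against 26.9 to 29.5 CPM, and 0.846 for H2-DMa in wild-type cells with LPS in normal medium, where library 3 read 15.8 CPM against 10.1 to 11 CPM. For Ciita it was 0.8705 in knockout cells with LPS in low medium (library 2 at 1.67 CPM against 4.87 to 5.34 CPM) and 0.8475 in wild-type cells with LPS in low medium (library 1 at 3.31 CPM against 0.413 to 0.856 CPM). H2-DMb2 gave a share of 1 in 2 sets where the other 3 libraries had 0 counts: knockout cells with LPS in low medium (library 4 at 1.46 CPM) and wild-type cells with LPS in normal medium (library 1 at 0.52 CPM).

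Tests of a difference between responses passed the edgeR threshold for 4 values. The genotype difference of H2-Aa with LPS was lower in low than in normal medium by a log2 value of -1.155, and the LPS response of Ciita in low medium was higher in knockout than in wild-type cells by 3.22. In knockout cells the LPS response was smaller in low than in normal medium for H2-Aa (-1.08) and H2-Ab1 (-0.88). All 4 were lost with libraries summed in pairs.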

How the results depend on the processing

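No called member value changed direction under any alternative run. Of 36 calls, 35 held with RLE size factors, 34 with no filter on low counts, 36 with DESeq2, 36 with H2-DMb2 added to H2-DMb1, 33 of 34 that could be fitted with the compared groups alone, and 25 with libraries summed in pairs. The numbers of members called moved by over 1.5 times in the comparisons given next, and by 1 member in others: LPS in wild-type cells in low medium gave 5 with no filter and 5 with H2-DMb2 added, LPS in knockout cells 4 in normal medium (pairs summed, or the compared groups alone) and 6 in low medium (pairs summed), and medium in resting wild-type cells 4 with the compared groups alone and 6 with DESeq2. For genotype in low medium without LPS 0 became 2 with RLE size factors, 1 with the compared groups alone and 2 with DESeq2. With libraries summed in pairs, genotype in low medium with LPS went from 2 to 1, medium in resting knockout cells to 1 (1 also with the compared groups alone), medium with LPS to 0 in wild-type (0 also with no filter) and to 0 in knockout cells, and the 3 interactions with calls to 0. Medium by LPS in knockout cells gave 1 with RLE size factors, and genotype by medium with LPS gave 2 with DESeq2.

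Leaving out each library in turn gave 0 to 2 members for genotype in low medium without LPS, 1 to 3 for medium in resting knockout cells, 0 to 2 and 1 to 2 for medium with LPS in wild-type and knockout cells, 0 to 2 for genotype by medium with LPS, 0 to 2 for genotype by LPS in low medium, 1 to 3 and 0 to 1 for medium by LPS in knockout and wild-type cells, 4 to 6 for LPS in wild-type cells in low medium and 5 to 7 for medium in resting wild-type cells. Where a setting changed a call, the cause was not tested.

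Replicate numbers did not pair the samples: libraries with the same number in different groups deviated from their group means with correlations from -0.305 to 0.294, and 9 of 32 libraries were closest to their own number. With the replicate block the member calls stayed at 36 of 36. Over all genes, RLE size factors moved the share of calls that were higher from 46.9% to 60.8% for genotype by LPS in low medium, from 40.0% to 53.6% for genotype by medium with LPS, from 37.6% to 50.4% for medium by LPS in knockout cells and from 42.9% to 53.2% for genotype in low medium with LPS. Depth limits Ciita and H2-DMb2 most, with at most 37 and 17 counts in a library.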

Other observations

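The other class II genes were near the floor. H2-Ob, a chain of the H2-DO modulator of H2-DM, had group means of 0.887 to 3.29 CPM and passed in none of the 12 comparisons of 2 groups, and H2-Oa, H2-Eb2 and H2-Ea were not tested. H2-Ea had 3 counts, all in resting wild-type cells in low medium.

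The balance of the I-A chains is given as a description, with no test. There were 86.0 to 103.7 counts of H2-Ab1 per 100 of H2-Aa in the group means without LPS and 105.4 to 155.6 with it, and in knockout cells with LPS the value was 105.4 ± 9.46 (SD, n = 4) in normal and 142.7 ± 42.9 in low medium.

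All counts of H2-DMb2 but 8 came from libraries 1 and 2 of their groups. Prdm1 went from 2.62 ± 0.755 to 43.5 ± 11.8 CPM in resting wild-type cells in low medium, where Ciita also rose, and both were higher in all 4 libraries.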
